A study of Mus musculus with 12 samples.

Results

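Ttn, Ryr2, Dmd, Macf1, Plec, Ahnak, Syne1 and Syne2 are 8 genes that are expressed in heart and whose longest transcript is over 10 kb. They were chosen by name for that length and for their roles in muscle and the cytoskeleton. The rule held no measured value, but earlier results of these data were known when they were chosen. They are 8 of the 55401 genes listed in the count files, of 16598 genes with a count in any library, and of 355 genes over 10 kb with a count in any library. All 8 passed the filter on low counts, as did 6596 genes in all.

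Giant proteins tie the parts of a heart muscle cell together. Titin (Ttn) spans the sarcomere from the Z-disc to the M-band and acts as its spring, and the ryanodine receptor Ryr2 releases calcium from the sarcoplasmic reticulum at each beat. Dystrophin (Dmd) links actin to a glycoprotein complex in the plasma membrane, and Ahnak is a scaffold under that membrane. Macf1 crosslinks actin and microtubules, plectin (Plec) anchors intermediate filaments, and the nesprins Syne1 and Syne2 join the nuclear envelope to the cytoskeleton. Their mRNAs are among the longest in the tissue, so methods that read a cDNA from its poly(A) end seldom reach the start of such a message.

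Adult mouse hearts of 2 genotypes, wild type (WT) and Rpl3l-/- (KO), were measured in 2 fractions. Rpl3l encodes a ribosomal protein of striated muscle that is a paralog of Rpl3. The IP fraction is RNA bound to ribosomes that an antibody against the HA tag captured from hearts treated with cycloheximide, which holds ribosomes on the message. The Input fraction is total RNA extracted with TRIzol from heart homogenates, while IP RNA was extracted with a column kit, so fraction and RNA extraction cannot be told apart. Each of the 4 groups, WT Input, KO Input, WT IP and KO IP, held 3 libraries from biological triplicates, and the p-values measure the spread between those libraries. Both fractions were enriched for poly(A) RNA on oligo(dT) beads and sequenced as nanopore direct cDNA. The labels do not give the age or sex of the mice, the extent of the deletion, the cells that carried the HA tag, or whether an Input and an IP library came from the same heart. In heart tissue, fewer cells of a type and less RNA per cell cannot be told apart.

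The genes lie on 8 chromosomes of the GRCm38 build, with models from GENCODE M21. Ttn (ENSMUSG00000051747.15; chr2:76703980-76982547, minus strand) has a longest transcript of 106.8 kb in 347 exons. Ryr2 (ENSMUSG00000021313.16; chr13:11553102-12106945, minus strand) has 16.8 kb in 105 exons, and Dmd (ENSMUSG00000045103.19; chrX:82948870-85206141, plus strand) has 14.9 kb in 79 exons spread over 2257.3 kb of genome. These 3 were followed by the cytolinkers and scaffolds. Macf1 (ENSMUSG00000028649.21; chr4:123349633-123684360, minus strand) has 23.5 kb in 98 exons, and Plec (ENSMUSG00000022565.15; chr15:76170974-76232574, minus strand) has 15.5 kb in 33 exons. Ahnak (ENSMUSG00000069833.13; chr19:8989284-9076914, plus strand) has 18.1 kb in only 5 exons, the fewest of the 8. The nesprins are Syne1 (ENSMUSG00000096054.3; chr10:5020917-5551482, minus strand), with 27.9 kb in 146 exons, and Syne2 (ENSMUSG00000063450.14; chr12:75818134-76110926, plus strand), with 21.7 kb in 115 exons. Coding sequence fills most of each transcript, such as 105.6 kb of 106.8 kb in Ttn and 22.1 kb of 23.5 kb in Macf1.

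Every one of these genes also has shorter annotated forms, and the files give 1 count per gene, so a count does not say which form was read. The shortest protein-coding transcript is 0.27 kb for Ttn, 1.11 kb for Ryr2 and Macf1, and 0.25 kb for Plec. For Ahnak it is 0.83 kb, for Dmd 1.86 kb, for Syne1 2.73 kb and for Syne2 0.44 kb. Of the overlapping genes, Parp10 on the same strand as Plec had 44 counts over the 12 libraries, beside 549 for Plec. The other overlapping genes had at most 1 count each.

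Because oligo(dT) also anneals to runs of A inside a message, the longest transcript of each gene was searched on its sense strand for unbroken runs of at least 8 A, leaving out the last 200 bases. Of the 3 runs found, 2 are shown here because they are places where an oligo could meet A inside these messages. Each is printed 5′ to 3′ in a window of 30 bases with the run in capitals. The Ttn run lies in the 3′ UTR in exon 347 (chr2:76704578-76704607, minus strand), 0.61 kb from the 3′ end. The Dmd run is in coding sequence of exon 40 (chrX:83927937-83927966, plus strand), 8.99 kb from the 3′ end.
Ttn: ctatccacctAAAAAAAAAAggatgcttct
Dmd: ggatgaaattgAAAAAAAAttagccagcct

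The 8 transcripts held fewer such runs per length than the whole class of transcripts over 10 kb, which includes them. The 3 runs in 245 kb of sequence are 0.0122 runs per kb, while the 353 transcripts over 10 kb of genes with a count held 0.1247 per kb. At least 1 run was present in 3 of the 8 genes (37.5%), in 64.6% of those 353 transcripts and in 23.9% of all 14996 transcripts searched. No run of 12 A or more was found in the 8, while 106 of the 353 transcripts over 10 kb had such a run. A match is a description of sequence only, and no priming event was measured.

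Libraries held 169359 to 710868 counts, so 3 counts stood for 4.22 to 17.71 CPM, counts scaled by library size. Rpl3l, the targeted gene, was at 270 ± 43.9 CPM in WT Input and 48.9 ± 20.9 CPM in KO Input, and at 272 ± 2.75 CPM in WT IP and 4.42 ± 3.37 CPM in KO IP (mean ± SD, n = 3), in the direction of the labels. Cardiomyocyte markers summed to 56540 to 73393 CPM over the 12 libraries, with 9 of 10 detected and Actc1 listed at 0. Globin genes took from 1.702% to 17.258% of a library's counts. Genes over 10 kb took 1.328% to 2.384% of counts, and the 8 giant genes 0.2977% to 0.6088%, with KO IP replicate 2 highest in both.

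**Figure D1:**
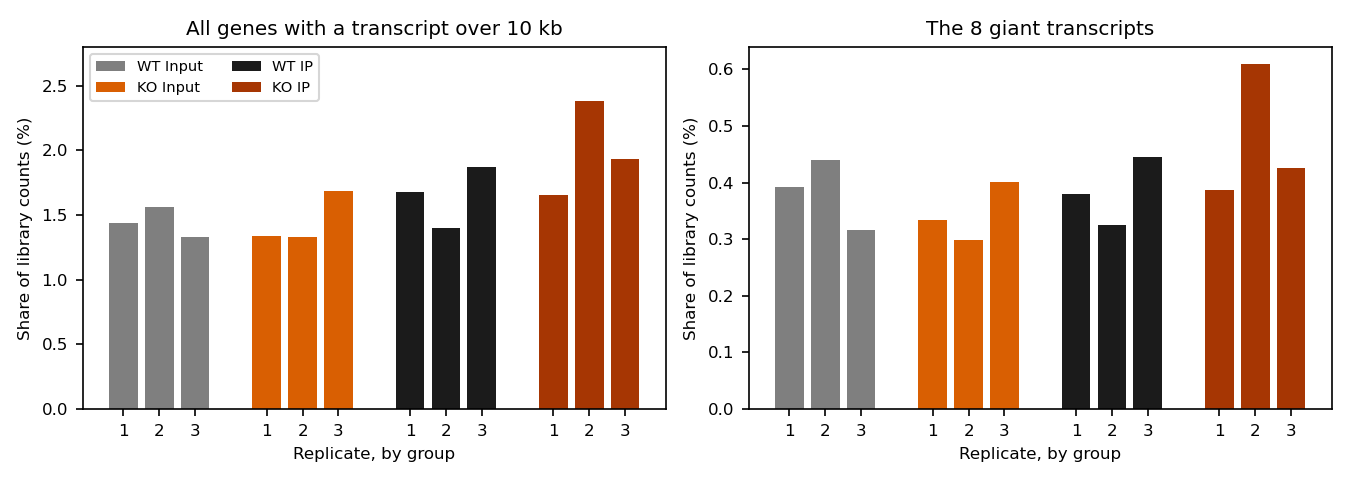
Share of each library's counts (%, vertical axis) in all genes with a transcript over 10 kb (left) and in the 8 giant genes (right), with 1 bar per library ordered by group and replicate. KO IP replicate 2 stands highest in both panels, at 2.384% and 0.6088%.

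In WT Input, Ttn was at 2617 ± 264 CPM and Ryr2 at 764 ± 78.4 CPM (mean ± SD, n = 3, here and below for levels). Levels were also divided by the length of the longest annotated transcript. The form that was read is not known, so the order per length depends on that choice and does not rank numbers of molecules. Levels per length differed widely among the 8 genes. On this scale Ryr2 was the highest, at 45.4 ± 4.66 CPM per kb in WT Input, and Syne2 the lowest, at 1.56 ± 0.447 CPM per kb. Between them came Ttn at 24.5 ± 2.47 and Ahnak at 19.5 ± 2.16 CPM per kb. Macf1 followed at 8.15 ± 1.04, Dmd at 7.31 ± 0.841, Plec at 5.69 ± 1.26 and Syne1 at 3.08 ± 0.281 CPM per kb. Macf1 and Dmd, and also Dmd and Plec, lay within a summed SD of each other, whereas the other neighbours in this order were further apart than that. KO Input had the same order. In both IP groups the order was Ryr2, Ahnak, Ttn, Plec, Macf1, Syne1, Dmd, Syne2. Dmd thus stood below Syne1 in IP, at 2.21 ± 0.453 against 2.52 ± 0.533 CPM per kb in WT and 2.11 ± 0.584 against 3.09 ± 0.287 in KO. The ranges of mean ± SD overlapped in WT and not in KO.

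**Figure D2:**
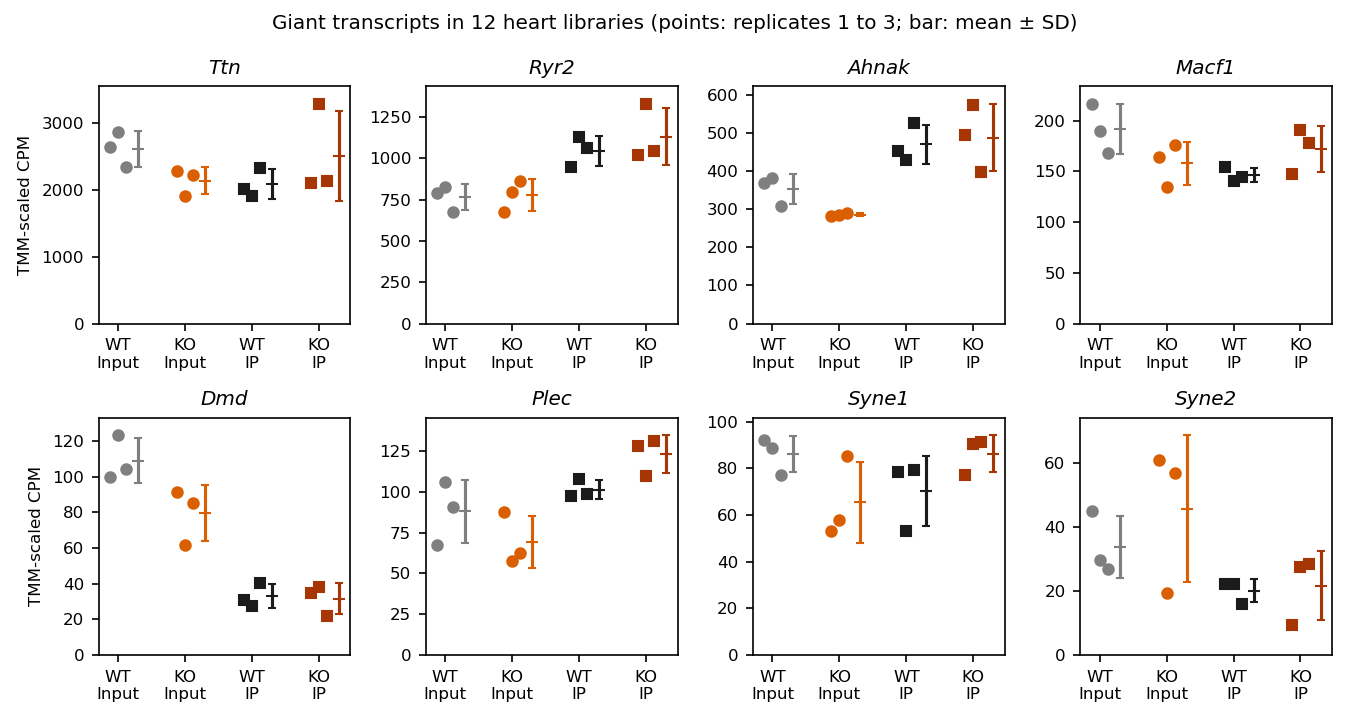
Level of each gene in the 12 libraries (TMM-scaled CPM, vertical axis from 0, a separate scale per gene), with a point per library, replicates 1 to 3 from left to right, and mean ± SD beside them. All 6 IP libraries lie below all 6 Input libraries for Dmd, and above them for Ryr2 and Ahnak.

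The first comparison asked which of these messages were more or less abundant on the captured ribosomes than in total RNA. Dmd was the gene that stood apart: its level in IP was 3.30-fold lower than in Input in WT hearts and 2.49-fold lower in KO hearts. Ryr2, Plec and Ahnak were higher in IP than in Input in KO hearts, by 1.46-fold to 1.75-fold. No other member passed the test in either genotype. In WT, 1 of 8 members was called (edgeR's quasi-likelihood test, adjusted p under 0.05), beside 14.0% of all genes tested. In KO, 4 of 8 were called, beside 16.4% of all genes. Over all genes, 354 were higher and 572 lower in IP in WT, and 438 higher and 645 lower in KO. Scaling by library totals gave 417 higher and 439 lower in WT and 599 higher and 448 lower in KO, since it moved the median of all genes from 0.02 to 0.11 in WT and from 0.01 to 0.15 in KO, and it left the members' calls at Dmd in WT and the same 4 genes in KO. Endothelial markers, 11 of 11 detected, summed to 2402 to 3927 CPM in Input and 2004 to 2178 CPM in IP. Single markers went both ways: 2 were called higher and 1 lower in IP in WT, and 1 higher and 3 lower in KO. The part of endothelial RNA in the members' values was not tested.

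Dystrophin mRNA was low in every IP library. In CPM, the WT Input libraries were at 99.7, 123.3 and 104.1 and the KO Input libraries at 91.4, 61.6 and 85.2. The WT IP libraries were at 31.1, 27.4 and 40.5, and the KO IP libraries at 35.0, 37.9 and 21.6. The highest IP library lay below the lowest Input library, whichever the genotype. These levels rest on 15 to 50 reads per Input library and 13 to 29 per IP library. The log2 fold change of IP against Input was -1.72 in WT (SE 0.28, adjusted p = 0.000106) and -1.31 in KO (SE 0.31, adjusted p = 0.00438). Among the 186 tested genes over 10 kb, Dmd ranked 4 from the lowest in WT and 3 from the lowest in KO. The call held in 18 of 18 alternative analyses in both genotypes, from -1.93 to -1.61 in WT and from -1.72 to -1.09 in KO.

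Utrophin (Utrn), the close relative of dystrophin that binds the same membrane complex, was compared with Dmd within each library, since such a ratio does not depend on library size. Per 100 Utrn reads, Dmd had 142.9, 142.9 and 155 reads in WT Input and 126.3, 94.1 and 150 in KO Input. It had 61.8, 42.1 and 46.9 in WT IP and 60, 55.8 and 30.2 in KO IP. Every IP library lay below every Input library. The ratios rest on few Utrn reads, 28, 35 and 20 in the WT Input libraries and 19, 17 and 10 in the KO Input libraries. In IP, Utrn had 34, 38 and 49 reads in WT and 25, 52 and 43 in KO. These ratios use the same Dmd reads as the test above, so they are not independent of it. The log2 ratio differed by -1.44 between IP and Input (exact permutation test within genotype, two-sided, p = 0.005, the smallest that the 400 arrangements allow, adjusted p = 0.03 over 6 ratio tests). Utrn itself had a log2 fold change of IP against Input of -0.16 in WT (SE 0.26, adjusted p = 0.731) and 0.02 in KO (SE 0.28, adjusted p = 0.978), so Utrn was not called where Dmd was.

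Of 12 tested genes of the dystrophin glycoprotein complex (17 listed), 2 were higher and 0 lower in IP in WT, and 1 was higher and 0 lower in KO. The group's median log2 fold change was 0.34 in WT and 0.13 in KO, beside 0.02 and 0.01 over all genes. Sarcospan (Sspn), a membrane-spanning member, rose by a log2 fold of 0.60 in WT (adjusted p = 0.0436), the opposite direction to Dmd.

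**Figure D3:**
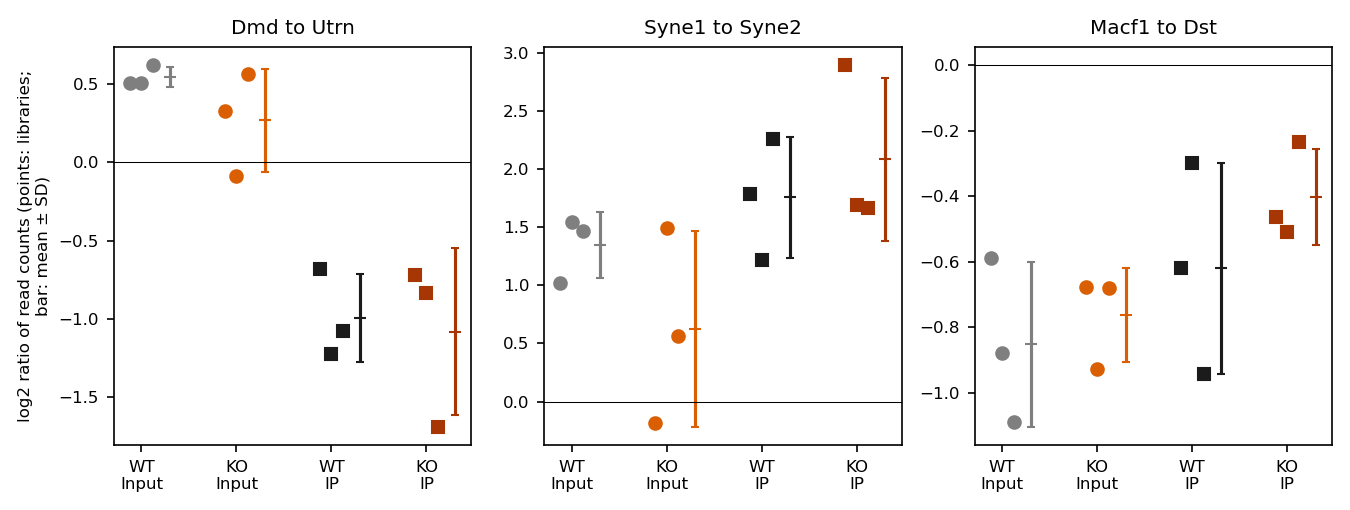
Log2 ratio of read counts within each library (vertical axis, a separate scale per pair) for Dmd to Utrn, Syne1 to Syne2 and Macf1 to Dst, with a point per library and mean ± SD of 3. All 6 IP libraries lie below all 6 Input libraries for Dmd to Utrn, whereas for the other pairs the fractions overlap in WT and are apart in KO.

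Ryr2, the calcium release channel, was at 792.7, 823.7 and 675.1 CPM in WT Input and 948.9, 1127 and 1065 CPM in WT IP. KO hearts had 674.0, 793.5 and 863.7 CPM in Input and 1017, 1332 and 1047 CPM in IP. All 6 IP libraries were higher than all 6 Input libraries. On the log2 scale, IP against Input was 0.45 in WT (SE 0.16, adjusted p = 0.0566), which missed the threshold, and 0.55 in KO (SE 0.16, adjusted p = 0.0200). The KO call was lost without KO IP replicate 2 (adjusted p = 0.103), without KO Input replicate 1 (0.107) or without KO Input replicate 2 (0.0528). The KO call held in 13 of 18 alternative analyses, and the WT value passed in 5 of 18.

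Of 17 tested genes of the dyad, the junction where Ryr2 sits (20 listed), 3 were higher and 1 lower in IP in WT, and 2 higher and 1 lower in KO. The median log2 fold change was 0.15 in WT and -0.01 in KO. Jph2, which holds the sarcoplasmic reticulum to the T-tubule, rose by 0.94 in WT (adjusted p = 0.000969) and 0.93 in KO (adjusted p = 0.00139). Asph, the gene of the reticulum protein junctin, rose by 0.67 in WT and 0.71 in KO. Sorcin (Sri), a calcium-binding regulator of the channel, fell by 0.98 on the log2 scale in WT.

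Titin gave no call in either genotype. Ttn was at 2642, 2868 and 2341 CPM in WT Input and 2018, 1914 and 2338 CPM in WT IP. Its KO levels were 2281, 1911 and 2233 CPM in Input and 2103, 3298 and 2136 CPM in IP. In WT each IP library was below each Input library, with 2338 against 2341 CPM at the closest, and in KO the fractions overlapped, with KO IP replicate 2 well above the rest. IP against Input thus stood at a log2 fold change of -0.33 in WT (SE 0.18, adjusted p = 0.238) and 0.23 in KO (SE 0.18, adjusted p = 0.412), with 95% intervals of -0.67 to 0.02 and -0.12 to 0.58.

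Among 20 tested partners of titin at the Z-disc, I-band and M-band (23 listed), 2 were higher and 2 lower in IP in WT, and 3 were higher and 3 lower in KO. Mybpc3, the myosin-binding protein of the A-band, rose by a log2 fold of 1.14 in WT (adjusted p = 3.15e-05) and 0.58 in KO (adjusted p = 0.0207). Myoz2, a Z-disc protein that binds calcineurin, fell by 0.80 in WT (adjusted p = 0.00111) and by 0.60 in KO (adjusted p = 0.0121). Ankrd1, a stress-responsive ankyrin repeat protein of the I-band, rose by 1.03 in WT (adjusted p = 0.000946). Its relative Ankrd23 fell by 0.97 in KO (adjusted p = 0.00216). The group's median was 0.14 in WT and 0.05 in KO.

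Ahnak, the membrane scaffold, was at 368.9, 382.2 and 309.0 CPM in WT Input and 454.4, 430.0 and 528.2 CPM in WT IP. In KO hearts it was at 281.8, 285.0 and 289.8 CPM in Input and 494.7, 575.6 and 397.3 CPM in IP. No IP library overlapped with an Input library in either genotype. Its log2 fold change of IP against Input was 0.41 in WT (SE 0.16, adjusted p = 0.0998) and 0.78 in KO (SE 0.18, adjusted p = 0.00279). The KO call held in 17 of 18 alternative analyses and the WT value passed in 1 of 18. Of 5 tested genes whose products bind or accompany Ahnak (8 listed), 0 were higher and 2 lower in each genotype. These were S100a10, with -0.85 in WT and -0.80 in KO, and S100a11, with -1.57 and -0.92, both short messages of 0.7 and 0.5 kb that encode annexin-binding S100 proteins.

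Plectin was at 67.3, 106.0 and 90.7 CPM in WT Input and 97.7, 107.9 and 98.6 CPM in WT IP. In KO it was at 87.6, 57.8 and 62.5 CPM in Input and 128.3, 109.9 and 131.3 CPM in IP. The fractions overlapped in WT and were apart in KO. For Plec, IP against Input was at a log2 fold change of 0.20 in WT (SE 0.22, adjusted p = 0.589) and 0.81 in KO (SE 0.25, adjusted p = 0.0264). The KO Input libraries held only 11 to 23 Plec reads each. The KO call was lost without KO IP replicate 3 (adjusted p = 0.0761), KO Input replicate 2 (0.137) or KO Input replicate 3 (0.0691), and with DESeq2's test (0.0652), and it held in 11 of 18 alternative analyses.

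Macf1, the actin and microtubule crosslinker, was at 216.9, 189.9 and 167.9 CPM in WT Input and 153.9, 140.5 and 144.4 CPM in WT IP. In KO it was at 163.8, 134.8 and 176.2 CPM in Input and 147.0, 191.0 and 177.8 CPM in IP. In WT the IP libraries were all lower, and in KO the fractions overlapped. The resulting log2 fold change was -0.39 in WT (SE 0.18, adjusted p = 0.154) and 0.14 in KO (SE 0.20, adjusted p = 0.683), with 95% intervals of -0.75 to -0.04 and -0.24 to 0.52. Dst, the other large spectraplakin, was lower in IP in WT (-0.59, SE 0.18, adjusted p = 0.0292) and not called in KO (-0.22, adjusted p = 0.484). Per 100 Dst reads, Macf1 had 46.7 to 66.4 reads in WT Input and 51.9 to 81.2 in WT IP, and 52.2 to 62.3 in KO Input and 70.2 to 84.9 in KO IP. The log2 ratio was 0.30 higher in IP (exact permutation test, p = 0.045, adjusted p = 0.09), which did not pass after adjustment.

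The list of plakins, intermediate filament genes and spectrins also held ankyrins, Clasp and Mapre genes and Bag3. Of its 15 tested genes (20 listed), 2 were higher and 2 lower in IP in WT, and 2 higher and 0 lower in KO. Neither gene called higher in WT, Bag3 or Mapre2, is a plakin, intermediate filament gene or spectrin. Bag3, a co-chaperone of the Z-disc, rose by a log2 fold of 0.88 in WT and 0.68 in KO. The microtubule end-binding gene Mapre2 rose by 0.87 in WT and the spectrin Sptb by 1.15 in KO, while the spectrin Sptbn1 fell by 0.67 on the log2 scale in WT and Dst fell by 0.59.

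The nesprins had the lowest levels per length of the 8 in Input. Syne1 was at 92.2, 88.8 and 77.3 CPM in WT Input and 78.5, 53.1 and 79.2 CPM in WT IP. In KO it was at 53.3, 57.8 and 85.2 CPM in Input and 77.0, 90.3 and 91.4 CPM in IP. The fractions overlapped in both genotypes. Log2 fold changes of Syne1 were -0.30 in WT (SE 0.24, adjusted p = 0.458) and 0.44 in KO (SE 0.27, adjusted p = 0.292).

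Syne2 was at 44.9, 29.6 and 26.9 CPM in WT Input and 22.2, 22.3 and 15.8 CPM in WT IP. In KO it was at 60.9, 19.3 and 56.8 CPM in Input and 9.33, 27.5 and 28.3 CPM in IP. The WT fractions were apart and the KO fractions overlapped, at 4 to 21 reads per library over all 12. The log2 fold change was -0.75 in WT (SE 0.44, adjusted p = 0.273) and -0.97 in KO (SE 0.45, adjusted p = 0.152), so neither passed. Among genes over 10 kb it ranked 13 from the lowest in WT and 7 in KO.

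Syne1 reads per 100 Syne2 reads numbered 205.6, 300 and 287.5 in WT Input, 87.5, 300 and 150 in KO Input, 353.3, 238.5 and 500 in WT IP and 825, 328.6 and 323.5 in KO IP. The fractions overlapped in WT only. The log2 ratio was 0.94 higher in IP (exact permutation test, p = 0.04, adjusted p = 0.09), which did not pass after adjustment. Of 10 tested nuclear envelope genes (16 listed), 0 were higher and 2 lower in IP in WT, and 0 higher and 1 lower in KO. Sun1, which binds nesprins across the nuclear envelope, fell by 1.35 on the log2 scale in WT (adjusted p = 0.00559), and the chromatin-binding Banf1 fell by 0.81 (adjusted p = 0.0125). The lamin-binding gene Tmpo fell by 1.46 in KO (adjusted p = 0.00707).

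Counting libraries that do not overlap gives a second view of the same fractions. In WT, Ryr2 and Ahnak were apart and higher in IP (2 of 8, beside 16.4% of all genes), and Dmd, Macf1, Ttn and Syne2 apart and lower (4 of 8, beside 18.2%). In KO, Ryr2, Plec and Ahnak were apart and higher (3 of 8, beside 15.2%), and Dmd was apart and lower (1 of 8, beside 15.6%). Over both genotypes pooled, Dmd, Ryr2 and Ahnak had IP apart from Input, and the share of all genes so separated was not counted. The members' median log2 fold change was -0.31 in WT, against 0.02 over all genes, and 0.34 in KO, against 0.01. With the trend with transcript length removed, it was -0.52 in WT and turned to -0.06 in KO.

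Transcript length moved with the ratio of IP to Input over all genes. The median log2 fold change in WT was -0.49 for 535 genes under 1 kb and increased with length to 0.25 for 813 genes of 6 to 10 kb, and it was 0.20 for the 186 genes over 10 kb. In KO it ran from -0.56 under 1 kb to 0.42 over 10 kb. By the median length of a gene's protein-coding transcripts, the medians were -0.23 under 1 kb and 0.28 over 10 kb in WT, and -0.27 and 0.55 in KO, and Macf1 and Plec were the 2 members among the 48 genes over 10 kb. Of the 186 genes over 10 kb, 12 were higher and 6 lower in IP in WT, and 34 were higher and 3 lower in KO. Against that trend Dmd and Syne2 lay low in both genotypes, and Ttn and Macf1 also lay below the class median in both, as did Syne1 in WT. When the trend with length was removed, Dmd was still called in WT (-1.93, adjusted p = 2.76e-05) and in KO (-1.72, adjusted p = 0.00044). The same step ended the KO calls of Ryr2 (0.16, adjusted p = 0.48), Plec (0.42, adjusted p = 0.324) and Ahnak (0.39, adjusted p = 0.114). It brought Ttn (-0.54, adjusted p = 0.0131) and Macf1 (-0.60, adjusted p = 0.02) under the threshold in WT, and Syne2 (-1.39, adjusted p = 0.0396) in KO. Read lengths were not analysed here, so whether long cDNAs were recovered equally in both fractions was not tested.

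**Figure D4:**
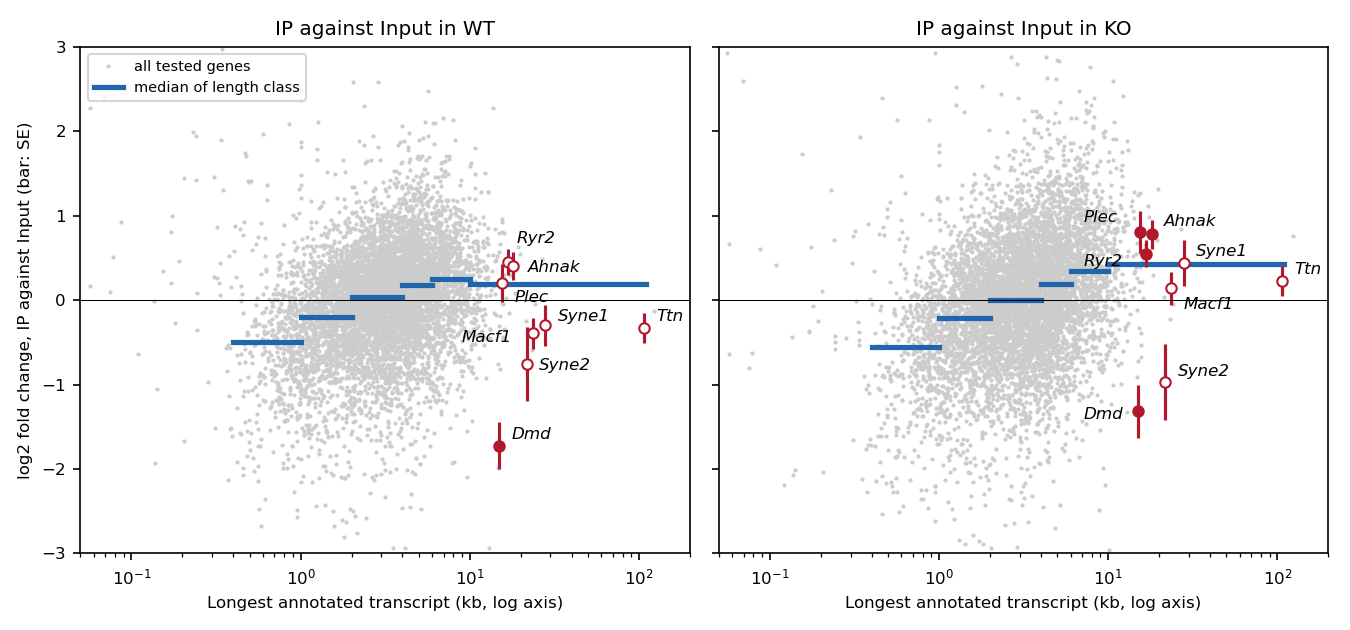
Log2 fold change of IP against Input (vertical axis) by longest annotated transcript (kb, log axis) in WT (left) and KO (right), with all tested genes in grey, the median of each length class as a blue line, and the 8 giant genes in red with SE (filled where the adjusted p is under 0.05). Dmd lies far below the class median in both panels. Values outside -3 to 3 are not drawn (35 genes in WT, 39 in KO).

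Other long genes show that the class was mixed. The largest calls above 10 kb in WT included Ago2, an Argonaute protein of the miRNA pathway, which rose by a log2 fold of 2.28, and fatty acid synthase (Fasn), which fell by 3.50 on the log2 scale. In KO, Fasn fell by 2.96 on the log2 scale. Adipocyte markers, of which Fasn is one, summed to 188 to 964 CPM in Input and 22.1 to 115 CPM in IP over both genotypes, with 8 of 8 detected, and their part in the fall of Fasn was not tested. Atrx, a chromatin remodeller, fell by 1.43 on the log2 scale in WT. In KO, Prrc2b rose by 2.60 and Spen, a nuclear corepressor, by 2.42. Of 30 tested long heart genes from a separate list (40 listed), 1 was higher and 2 lower in WT, and 3 were higher and 1 lower in KO. The muscle gene Xirp2, whose product binds actin at cell junctions, fell by 1.00 on the log2 scale in KO, while the kinase anchor Akap9 rose by 1.78 and the histone methyltransferase Kmt2d by 1.32.

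The second comparison asked whether loss of Rpl3l changed these messages in total RNA. None of the 8 passed the test in KO against WT Input (0 of 8 with edgeR, beside 0.182% of all genes, and 0 of 8 with DESeq2 and limma-voom). At an unadjusted p under 0.05 it was 0 of 8, beside 7.11% of all genes. Only Ryr2 and Syne2, 2 of 8, had a log2 fold change above 0, beside 49.4% of all genes, and the members had a median of -0.30 against -0.01 over all genes. Ttn was lower in all 3 KO libraries than in any WT library (-0.29, SE 0.18, adjusted p = 0.774), as were Dmd (-0.47, SE 0.29, adjusted p = 0.773) and Ahnak (-0.31, SE 0.18, adjusted p = 0.756). These 3 of 8 stand beside 6.20% of all genes apart in that direction.

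The remaining members overlapped between genotypes in Input. Macf1 was at -0.29 (SE 0.20), Plec at -0.33 (SE 0.27) and Syne1 at -0.44 (SE 0.28) on the log2 scale. Ryr2 was at 0.02 (SE 0.16), with a 95% interval of -0.30 to 0.34, and Syne2 at 0.39 (SE 0.45), with an interval of -0.50 to 1.28. The 95% interval of Ttn ran from -0.64 to 0.06 and that of Dmd from -1.03 to 0.09. A decrease of Dmd by a log2 fold of 1 was therefore inside its interval.

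In ribosome-bound RNA, Ttn, Macf1, Plec, Ahnak and Syne1 had values above 0 where Input had values below 0, and none passed the test in either fraction. In KO against WT IP, 0 of 8 members were called (edgeR, beside 0.0910% of all genes, and 0 of 8 with DESeq2 and limma-voom). At an unadjusted p under 0.05 it was 0 of 8, beside 5.20% of all genes. For 7 of 8 (all but Dmd, which was at 0.047 with library totals) the log2 fold change was above 0, beside 50.0% of all genes, with a median of 0.21 against 0.00 over all genes. The 186 genes over 10 kb had 133 above 0 and a median of 0.19 in the same contrast, and the members' median was 0.061 with the length trend removed. Ttn was at 0.27 (SE 0.18, adjusted p = 0.968), Syne1 at 0.30 (SE 0.23), Macf1 at 0.24 (SE 0.17) and Plec at 0.27 (SE 0.20). Plec was the only member whose KO libraries were all above its WT libraries in IP (1 of 8, beside 5.40% of all genes). Ryr2 was at 0.12 (SE 0.15), Ahnak at 0.06 (SE 0.16), Syne2 at 0.17 (SE 0.43) and Dmd at -0.06 (SE 0.31), with a 95% interval for Dmd of -0.66 to 0.54. The members' median depended on KO IP replicate 2, the largest library, and was -0.0016 without it, with Ttn at 0.02. That library also stood highest over all 186 genes over 10 kb, whose levels deviated from their mean over the 12 libraries by a median log2 of 0.376 there, and from -0.171 to 0.255 in the other libraries. Fibroblast markers, 9 of 10 detected with Tcf21 listed at 0, summed to 2877 to 3954 CPM in WT IP and 4265 to 4742 CPM in KO IP. These sums are scaled by library totals, without TMM, and the part of fibroblast RNA in the members' values was not tested.

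The third comparison, the interaction, asked whether the ratio of IP to Input differed between genotypes. No member was called (0 of 8 with edgeR, beside 0.0910% of all genes, and 0 of 8 with DESeq2 and limma-voom). The value of KO minus WT was above 0 for 7 of 8, beside 50.6% of all genes, with a median of 0.47 against 0.01 over all genes and 0.27 over genes over 10 kb. Ttn was the single member with an unadjusted p under 0.05 (0.56, SE 0.25, unadjusted p = 0.0362, adjusted p = 0.690), beside 7.02% of all genes. Syne1 was at 0.74 (SE 0.37, adjusted p = 0.722), Plec at 0.60 (SE 0.34, adjusted p = 0.756) and Macf1 at 0.54 (SE 0.27, adjusted p = 0.722). Ahnak was at 0.37 (SE 0.24), Dmd at 0.41 (SE 0.42), Ryr2 at 0.10 (SE 0.23) and Syne2 at -0.22 (SE 0.63). The calls of Ryr2, Plec and Ahnak in KO and not in WT are thus not shown to differ between genotypes. The members' median was 0.27 without KO IP replicate 2, 0.27 with the length trend removed and 0.28 with libraries thinned to the smallest total.

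**Figure D5:**
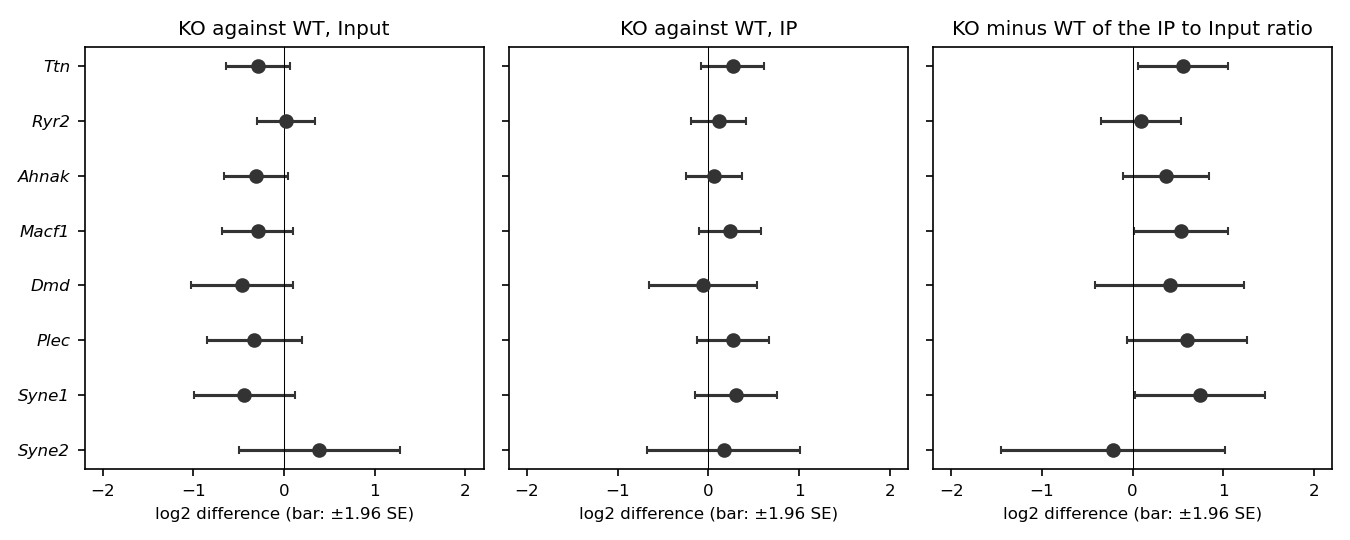
Log2 difference (horizontal axis) of KO against WT in Input (left) and in IP (middle), and of the KO minus WT difference of the ratio of IP to Input (right), for each giant gene, with points for estimates and bars for 95% intervals. Bars in both genotype panels cross 0 for all 8 genes, and the interaction of Ttn, 0.56, has an adjusted p of 0.690. In the right panel the bars of Ttn (0.06 to 1.05), Macf1 (0.02 to 1.06) and Syne1 (0.02 to 1.46) lie above 0. The bars use a normal approximation, and by edgeR's test the unadjusted p was 0.0543 for Macf1 and 0.0536 for Syne1.

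The ratios between relatives did not separate the genotypes either. For Dmd to Utrn the log2 ratio differed by -0.18 between KO and WT (exact permutation test within fraction, p = 0.385, adjusted p = 0.462). For Macf1 to Dst the difference was 0.15 (exact permutation test, p = 0.25, adjusted p = 0.375). For Syne1 to Syne2 it was -0.20 (exact permutation test, p = 0.61, adjusted p = 0.61), a mean of opposite directions, 0.33 in IP and -0.72 in Input. The sign of that mean rested on KO Input replicate 1, without which it was 0.01.

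No gene of the lists of partners was called in KO against WT Input or in the interaction, and Ankrd1 alone was called in KO against WT IP. Ankrd1 was at 2257 ± 579 CPM in WT IP and 1067 ± 130 CPM in KO IP, which is -1.08 on the log2 scale (SE 0.20, edgeR's adjusted p = 0.0245). The gene nearest the threshold among dystrophin partners in IP was Dysf, a membrane repair protein (-0.68, SE 0.28, adjusted p = 0.92). The smallest p among long heart genes belonged to Akap9 in Input (-1.74, SE 0.48, adjusted p = 0.243) and to Xirp2 in IP (-0.72, SE 0.22, adjusted p = 0.571).

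Across the 12 libraries the 8 genes did not form a single pattern. As a description of log2 CPM over 12 libraries that share depth and fraction, Pearson's r was 0.853 between Ryr2 and Ahnak and 0.761 between Ttn and Macf1, and it was -0.789 between Ryr2 and Dmd. Of 6596 genes, those most like Ryr2 were Dusp18 (r = 0.958) and Lynx1 (r = 0.938), and those most like Ahnak were Nrap (r = 0.944) and again Lynx1 (r = 0.932). Those most like Dmd were Arl5c and Rps12 (r = 0.953 each), the second of which encodes a ribosomal protein. Ttn was most like Kidins220 (r = 0.855), Macf1 like Rnf19b (r = 0.855), Plec like Rab11fip5 (r = 0.94), Syne1 like Ecd (r = 0.865) and Syne2 like Vbp1 (r = 0.921). Each was picked as the highest over all tested genes, and none carries a test.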

How the data were processed

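Direct cDNA of 12 heart libraries was analysed. The deposited files hold integer read counts per gene, per the file headers and values, and no row named anything but a gene. The submitters' processing notes name minimap2 2.14, DESeq2 1.34.0 and GRCm38, without their roles. The counting tool, its rule and its use of strand are not given in the sources used here. Gene IDs were matched without version to GENCODE M21 (55141 of 55401), and 3 of the 8 members carried another version there. Of the listed genes, 38803 were at 0 in every library and were not analysed. Length is that of the longest protein-coding transcript. For removal of the length trend, lengths over 10 kb were set to 10 kb.

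Counts were filtered with filterByExpr (minimum count 10, minimum total 15) and tested on all 12 libraries with 1 mean per group by edgeR 4.0.16 (TMM, quasi-likelihood, R 4.3.3). Benjamini-Hochberg adjustment ran over 6596 genes within each contrast, with a threshold of 0.05. CPM are TMM-scaled. SEs were the log2 fold change divided by the square root of F, and 95% intervals use the normal approximation. Ratios of relatives used a pseudocount of 0.5. Precision is limited by depth: counting error at the low-count members is given as reads per library. The fit was tested on simulated data. Of 100 tested genes set to change by a log2 fold of 1, 28% were called in KO against WT Input and 46% in KO against WT IP. In IP against Input, 45% were called in WT and 31% in KO. At a log2 fold of 2 the shares were 82% to 98%. These genes were drawn from all tested genes and not at the depth of the members. A count of 0 members called therefore does not by itself exclude changes by a log2 fold of 1, and the interval of each member has to be read. In KO against WT, a log2 fold of 1 lay inside the 95% intervals of Dmd and Syne2 in Input and of Syne2 in IP. The interval of Syne1 in Input ended at -0.996. Correlations used log2 CPM with a prior count of 2.

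The members and lists were chosen with earlier results of these data known. Named genes were the 8 members, Rpl3l, Utrn and Dst. Per contrast and list, up to 3 called genes with the smallest p were named, or the 1 with the smallest p. Per contrast, up to 5 called genes over 10 kb in each direction with the largest change, libraries apart and mean CPM of at least 20 were named, of which the text prints some. The 2 genes most alike to each member were also named. The searches for runs of at least 12 A and at least 8 A were made in that order, the second after the first found none. Alternatives were DESeq2 size factors, library totals, no filter, a stricter filter (30 counts in 3 libraries), a replicate block, the length trend removed (lowess span 0.5), globin genes left out, both Input libraries numbered 3 left out, libraries thinned to 169359 counts, only the compared libraries, DESeq2 1.42.0, limma-voom (limma 3.58.1), each library left out in turn, and, for length classes, the median transcript length. Some genes that this rule names, and 1 run of A, are not reported here.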

Additional observations from a re-analysis of the deposited data

Results flagged for a closer look

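Rpl3l, the targeted gene, had a KO minus WT difference of the log2 ratio of IP to Input of -3.38 (SE 0.52, edgeR's adjusted p = 0.00538), which differed between genotypes by the interaction test. In KO hearts its mean was 48.9 CPM in Input (18, 7 and 9 reads per library) and 4.42 CPM in IP (1, 2 and 5 reads), and in WT hearts 270 and 272 CPM. The call was lost with limma-voom (adjusted p = 0.376), after thinning (0.129) and without KO Input replicate 1 (0.0503). No giant gene met this or either of the other criteria for a closer look, and groups of 3 libraries were not screened for single outlying libraries.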

How the results depend on the processing

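Dmd was called lower in IP under 18 of 18 alternatives in each genotype. The number of members called in WT IP against Input, 1 in the report, was 2 with DESeq2 size factors, with no filter, with the DESeq2 test and with limma-voom (Ryr2 joined Dmd). It was 3 with only the compared libraries (Ryr2 and Ahnak joined) and 3 with the length trend removed (Ttn and Macf1 joined). In KO the number, 4 in the report, was 2 with the length trend removed (Dmd and Syne2), and 2 to 4 with a library left out, 2 without KO Input replicate 2 (Dmd and Ahnak). In KO it was also 3 with the DESeq2 test, after thinning and without both Input libraries numbered 3 (Plec was lost). With only the compared libraries it was 3 in KO (Ryr2 was lost). The counts of 0 in both genotype comparisons and the interaction were 0 under every alternative run.

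Libraries with the same replicate number had correlations of deviations of -0.115 to 0.042, and a library correlated best with its own number in 3 of 36 cases. Both ends of that range came from a WT with a KO library, which are from different hearts. For Input with IP of the same genotype and number, the values were -0.041 to -0.017 in WT and -0.027 to -0.004 in KO. Whether such libraries came from the same heart was not tested. For IP against Input, a replicate block left 1 call in WT and 4 in KO, and it left 0 in the other contrasts. With the block, the Dmd to Utrn difference between IP and Input was -1.44 with adjusted p = 0.188, the smallest adjusted p that sign flips of 6 differences allow, so the block cannot pass here. Leaving out 1 library gave -1.53 to -1.29 for that ratio, and all passed. The Syne1 to Syne2 difference between IP and Input ran from 0.73 to 1.15 and passed without WT IP replicate 2 (1.07, adjusted p = 0.015). The Macf1 to Dst difference ran from 0.22 to 0.38 and passed without WT IP replicate 3 (0.38, adjusted p = 0.045). The Syne1 to Syne2 difference between KO and WT ran from -0.41 to 0.01 (0.0062 without KO Input replicate 1).

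Values that changed sign were uncalled before and after, and the cause was not tested. With the length trend removed, KO against WT in IP was -0.013 for Ryr2 and -0.063 for Ahnak, IP against Input in KO was -0.17 for Ttn and -0.26 for Macf1, and the interaction of Ryr2 was -0.085. Ryr2 in KO against WT Input was -0.034 with no filter and -0.14 without both Input libraries numbered 3. Dmd in KO against WT IP was 0.047 with library totals, Macf1 in KO IP against Input was -0.058 after thinning, the interaction of Syne2 was 0.060 without both Input libraries numbered 3, and Rpl3l in WT IP against Input was -0.042 with the stricter filter. With 1 library left out, KO against WT in Input ran from -0.073 to 0.099 for Ryr2. In IP, KO against WT ran from -0.022 to 0.18 for Ryr2, from -0.26 to 0.16 for Dmd, from -0.084 to 0.19 for Ahnak and from -0.027 to 0.46 for Syne2. The interaction ran from -0.036 to 0.18 for Ryr2 and from -0.61 to 0.12 for Syne2, and Rpl3l in WT IP against Input from -0.12 to 0.12. The low ends for Ryr2, Ahnak and Syne2 in IP and for the interaction of Ryr2 came without KO IP replicate 2. Syne2 gave no value where a filter removed it. Depth limits Syne2, with 4 to 21 reads per library, and in KO Input also Plec, Syne1 and Dmd, with 11 to 24.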
